A study of Mus musculus with 64 samples.

Results

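The FGF ligand genes Fgf4, Fgf5, Fgf8, Fgf15 and Fgf17 were examined for binding of SOX2, β-catenin, LEF1, TCF7L1 and TCF7L2 in mouse pluripotent and caudal cells. They are 5 of 21938 protein-coding genes in the annotation. A peak was assigned to a gene when its summit lay inside the mm10 gene body or within 50 kb either side, which 3978 of 12175735 deposited peaks did. Of the 1094874 peaks that remained when each library was limited to its 20000 strongest by fold enrichment over local background, 793 lay in the 5 windows. Summits of these strongest peaks that lay within 200 bp of each other were joined into elements, and 221 of 598025 elements fell in the windows. Each element is named by its gene and its distance in kb from the transcript start, with a minus sign for upstream, so that Fgf4-39.3 lies 39.3 kb upstream of the Fgf4 start.

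FGF ligands are secreted proteins that activate receptor tyrosine kinases together with heparan sulfate or Klotho coreceptors, mostly through the RAS and ERK pathway. Fgf4 is made by naive pluripotent cells and drives their exit from that state, Fgf5 marks the epiblast after implantation, and Fgf8 and Fgf17 are related ligands of the primitive streak and tail bud. Fgf15 belongs to the endocrine subfamily and is the mouse counterpart of human FGF19. SOX2 and the TCF/LEF proteins bind DNA through HMG boxes with similar letters, and β-catenin reaches DNA through the TCF/LEF proteins.

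Naive ESC were HM1 TetON (WT) cells in 2i medium with 3 µM CHIR99021, a GSK3 inhibitor, and 500 nM PD0325901, a MEK inhibitor. Caudal epiblast-like cells (CEpiLC) came from the same line and were collected at 72 h after differentiation with 10 ng/ml bFGF and 5 µM LGK974, which blocks WNT secretion, and with CHIR99021 in the last 24 h. SOX2-ON and SOX2-OFF cells were treated likewise but came from the SOX2-TetON line, a picked Sox2-/- clone with a doxycycline-driven Sox2 transgene in the HPRT locus, with doxycycline kept at 1 µg/ml or withdrawn, and all 3 differentiated conditions therefore received added FGF. Naive ESC and SOX2-ON thus form the high-SOX2 side and CEpiLC and SOX2-OFF the low-SOX2 side, and each pairing of target with condition (20 groups) had 3 biological replicates, 60 libraries in all. The targets TCF7L1 and TCF7L2 carry their older names TCF3 and TCF4 in the labels. Another 4 input samples were not analysed here.

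The lists of the 60 libraries held between 1628 and 991719 peaks, and 10 lists were shorter than 20000, of which 9 came from the low-SOX2 conditions and 1 from SOX2-ON. A rank in a short list is therefore not on the same footing as a rank in a long one, and read depth is unknown. Caudal marker genes carried SOX2 peaks in all 3 libraries within 10 kb at 9 of 10 loci in CEpiLC and at 3 of 10 in naive ESC, and at 6 of 10 in both SOX2-ON and SOX2-OFF. The caudal markers include Fgf8 itself, so these counts are not independent of the genes described here. Naive marker genes did so at 7 of 8 loci in CEpiLC and 6 of 8 in naive ESC for SOX2, and at 4 of 8 and 6 of 8 for β-catenin.

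The sequences around the summits are shown for elements that carried most of the binding or of the differences described below. Each run is the mm10 plus strand, 100 bp either side of the strongest SOX2 summit of the element, or of its strongest summit where SOX2 had none. Capitals mark SOX letters (CTTTGT or CATTGT), OCT letters (ATGCAAAT or ATGCTAAT), TCF letters (CTTTGAA or CTTTGAT), CDX letters (TTTATGG or TTTATTG) and T/BRA letters (GGTGTG), searched on both strands, and no motif set is contained in another. The Fgf4 3′ UTR site is a run of 28 bases at chr7:144864389-144864416. The other windows are chr7:144822029-144822229 for Fgf4-39.3, chr5:98255799-98255999 for Fgf5+1.7, chr19:45790747-45790947 for Fgf8-48.0, chr19:45722935-45723135 for Fgf8+19.8, chr7:144907876-144908076 for Fgf15+11.4, chr7:144885290-144885490 for Fgf15-11.1, and chr14:70623185-70623385 for Fgf17+19.0.
Fgf4-39.3: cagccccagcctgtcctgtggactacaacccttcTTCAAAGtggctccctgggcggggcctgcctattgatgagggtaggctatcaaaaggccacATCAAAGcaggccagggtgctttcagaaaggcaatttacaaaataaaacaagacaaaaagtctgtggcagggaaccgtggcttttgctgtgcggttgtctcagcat
Fgf4 3′ UTR: aaactCTTTGTttggATGCTAATgggat
Fgf5+1.7: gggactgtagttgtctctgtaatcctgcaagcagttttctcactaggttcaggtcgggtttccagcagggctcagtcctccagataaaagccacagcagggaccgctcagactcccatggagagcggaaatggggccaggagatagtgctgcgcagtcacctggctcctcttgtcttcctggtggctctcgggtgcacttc
Fgf8-48.0: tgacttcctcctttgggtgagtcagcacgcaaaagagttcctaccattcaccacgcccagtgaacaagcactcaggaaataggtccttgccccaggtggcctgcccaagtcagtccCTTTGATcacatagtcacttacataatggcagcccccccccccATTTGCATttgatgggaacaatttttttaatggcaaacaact
Fgf8+19.8: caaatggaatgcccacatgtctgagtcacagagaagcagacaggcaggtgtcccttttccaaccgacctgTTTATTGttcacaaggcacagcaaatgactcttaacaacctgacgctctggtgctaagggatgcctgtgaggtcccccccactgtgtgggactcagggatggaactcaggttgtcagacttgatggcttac
Fgf15+11.4: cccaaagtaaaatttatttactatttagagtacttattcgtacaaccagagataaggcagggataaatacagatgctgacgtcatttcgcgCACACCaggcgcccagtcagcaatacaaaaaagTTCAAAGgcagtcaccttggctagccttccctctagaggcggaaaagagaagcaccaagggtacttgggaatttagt
Fgf15-11.1: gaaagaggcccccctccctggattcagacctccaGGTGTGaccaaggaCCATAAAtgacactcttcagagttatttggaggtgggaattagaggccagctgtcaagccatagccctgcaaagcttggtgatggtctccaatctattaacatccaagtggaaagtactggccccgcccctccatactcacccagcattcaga
Fgf17+19.0: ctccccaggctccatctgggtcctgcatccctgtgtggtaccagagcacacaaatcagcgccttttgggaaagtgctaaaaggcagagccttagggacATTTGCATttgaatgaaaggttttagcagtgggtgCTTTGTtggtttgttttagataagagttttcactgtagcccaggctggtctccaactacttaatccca

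Fgf4-39.3 had TCF letters 5 bp and 66 bp from the summit, Fgf8-48.0 had TCF and OCT letters, and Fgf17+19.0 had OCT letters 2 bp from the summit with SOX letters 33 bp from it. Fgf8+19.8 held CDX letters, Fgf15-11.1 held CDX and T/BRA letters, Fgf15+11.4 held TCF and T/BRA letters, and Fgf5+1.7 held none of the 5 motif sets. TCF letters occurred in 14.0% of the 221 elements and in 11.4% of all elements of the genome, OCT letters in 4.52% and 2.58%, SOX letters in 31.7% and 30.3%, CDX letters in 7.69% and 7.07%, and T/BRA letters in 19.0% and 13.6%. Among the 22742 elements of the genome with a SOX2 peak in at least 3 libraries, the shares were 57.1% for SOX, 15.7% for TCF and 8.10% for OCT letters. The letters describe the windows only.

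All 5 genes had peaks near them in every target and condition. Of the 100 groups of gene, target and condition, 81 had a peak among the strongest in 3 of 3 libraries, 88 did when all deposited peaks were used, and none lacked a peak in all 3 libraries. Over all protein-coding genes, the share of windows with 3 of 3 ran from 9.05% to 54.3% by group for the strongest peaks and from 11.0% to 96.4% for all peaks. Fgf4 and Fgf15 reached 3 of 3 in 19 of 20 groups each, Fgf8 and Fgf17 in 15 and Fgf5 in 13. The Fgf15 window held 274 strongest peaks over the 60 libraries and the Fgf4 window 237, more than 98.1% and 97.0% of protein-coding genes, against a median of 73.0. The Fgf8 and Fgf17 windows held 180 and 163 peaks, while Fgf5, with 102 peaks, exceeded 70.9% of genes. The Fgf4 and Fgf15 windows overlap on chromosome 7, where the genes lie next to each other with Fgf3, and 163 strongest peaks counted for both. Both windows also reach the protein-coding gene LTO1. The Fgf15 window also contains the whole of Ccnd1, the cyclin D1 gene, the Fgf17 window contains Dmtn, Npm2, Xpo7 and Fam160b2, and the Fgf8 window contains Npm3, Mgea5 and Kcnip2. A peak in these windows cannot be assigned to the FGF gene by position alone, whereas the Fgf5 window held no other protein-coding gene.

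Most elements were rare. Of the 221 elements, 155 occurred in 1 library, 29 in at least 6 and 5 in at least 30 of the 60. The recurrent 5 were Fgf15+43.5 in 44 libraries, Fgf15+11.4 in 43, Fgf8-48.0 in 42, Fgf5+1.7 in 36 and Fgf17+7.5 in 34, so that each gene except Fgf4 had at least 1. The nearest to that at Fgf4 was Fgf4-39.3 in 27 libraries. Among the 5, Fgf5+1.7 lay in the first intron of its own gene, and Fgf8-48.0 was intergenic, 7010 bp from the Mgea5 start. Fgf15+11.4 lay in an intron of the non-coding gene Gm39119, 7124 bp from the LTO1 start. Fgf17+7.5 lay in an intron of Dmtn, 1276 bp from the Dmtn start, and Fgf15+43.5 lay 102 bp from the Ccnd1 start.

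**Figure D1:**
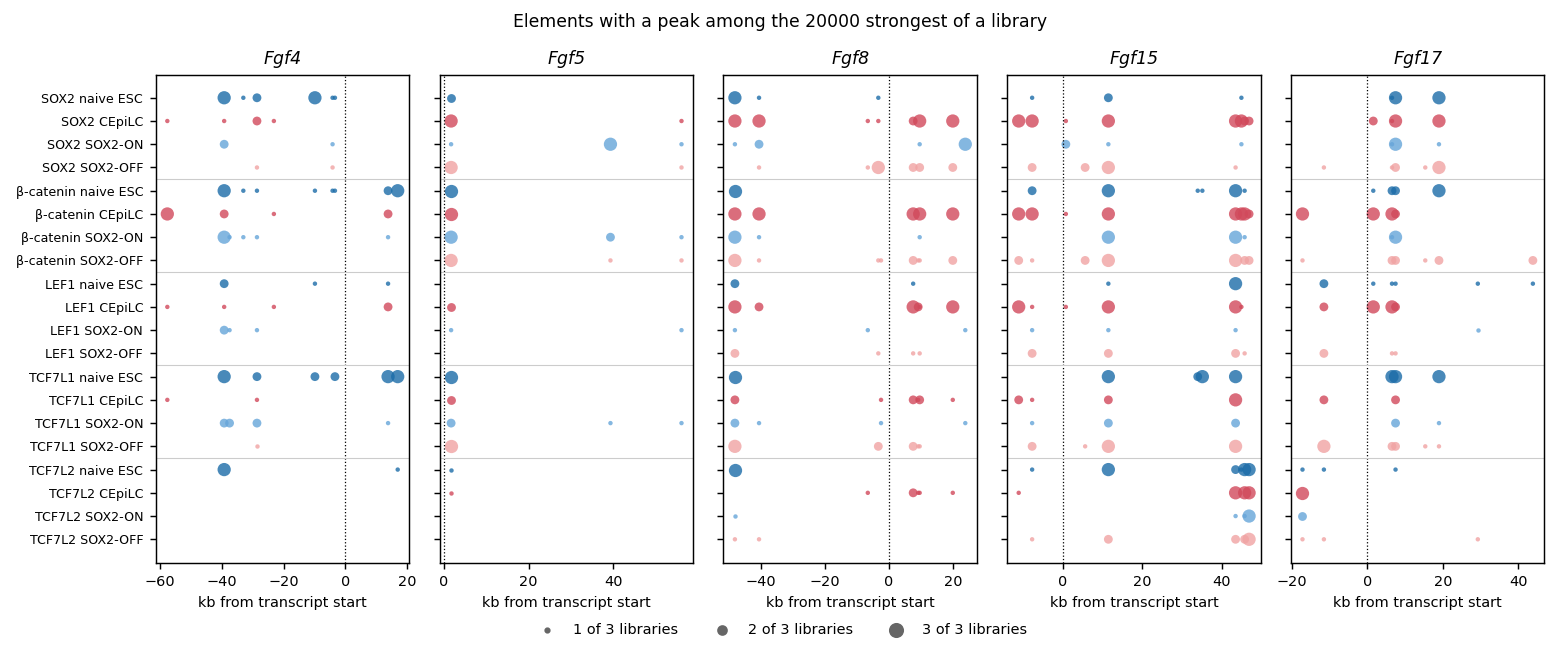
Elements in 3 or more of the 60 libraries at the 5 genes, by distance in kb from the transcript start (x axis, dotted line at 0) for each target and condition (y axis); the size of a point gives the number of 3 libraries with a peak among the 20000 strongest. The points at Fgf5 lie at 1.7 kb or farther downstream, and those at Fgf8 in CEpiLC and SOX2-OFF include the group between 7.5 and 19.8 kb that naive ESC lacked for SOX2 and β-catenin.

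At Fgf4, the strongest element was Fgf4-39.3 (chr7:144822034-144822242, intergenic), for which the nearest start was that of Fgf3, at 15954 bp. TCF7L1, the TCF family member best known as a repressor in pluripotent cells, had folds of 82.7, 63.8 and 129 there in naive ESC and 18.2 and 37.8 in 2 of 3 SOX2-ON libraries. No CEpiLC or SOX2-OFF library had a TCF7L1 peak among its strongest. The full lists held weaker TCF7L1 peaks of 5.13 and 4.47 in 2 CEpiLC libraries and of 6.06 in 1 SOX2-OFF library. β-catenin folds were 41.0, 17.8 and 49.2 in naive ESC, 13.7, 12.4 and 11.5 in SOX2-ON, 5.28 and 7.65 in 2 CEpiLC libraries, and the full lists of the third CEpiLC and of all SOX2-OFF libraries had no peak. SOX2 folds were 18.4, 12.5 and 17.8 in naive ESC, 6.31 and 7.30 in 2 SOX2-ON libraries, 8.20 in 1 CEpiLC library, and absent from the 3 SOX2-OFF lists. A lower fold in a bulk culture cannot be told apart from fewer cells with the site bound. By rank, every β-catenin library of high SOX2 stood above every library of low SOX2 within its line. Ranks ran from 356 to 1239 in naive ESC against 4049 at best in CEpiLC, and from 1750 to 4526 in SOX2-ON against none in SOX2-OFF.

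Fgf4+17.1, 17.1 kb downstream of the start (chr7:144878388-144878572), was found in naive ESC with β-catenin folds of 25.9, 11.7 and 19.3 and TCF7L1 folds of 33.3, 24.1 and 61.9. No differentiated library had a peak there among its strongest for any of the 5 targets. Fgf4+13.9 had TCF7L1 folds of 10.2, 14.9 and 28.8 in naive ESC and one of 4.34 in a single SOX2-ON library. Fgf4-57.7 went the other way, with β-catenin folds of 6.76, 5.13 and 5.22 in CEpiLC and no β-catenin peak among the strongest elsewhere. The full lists held β-catenin peaks there of 5.41 in 1 SOX2-OFF and 4.59 in 1 SOX2-ON library. The strongest peaks of these libraries ended at folds of 6.84 and 6.98. Fgf4-9.8 had SOX2 folds of 10.1, 9.47 and 9.92 in naive ESC and the full lists of the other 9 SOX2 libraries had no peak there.

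The 3′ UTR of Fgf4 (chr7:144862939-144865243) holds the enhancer at which SOX2 and OCT4 have long been known to cooperate, and it was singled out for that reason and not by the rule for naming elements. The SOX and OCT letters shown above lie inside it. The naive ESC libraries had SOX2 summits 7, 50 and 102 bp from this run, with folds of 11.3, 10.5 and 4.91, of which the third did not rank among the 20000 strongest. No SOX2 library of CEpiLC, SOX2-ON or SOX2-OFF had a peak there among its strongest, but the full lists held weaker peaks in the UTR of up to 4.80 in SOX2-OFF, 4.43 in CEpiLC and 4.41 in SOX2-ON, close to the third naive ESC value. A SOX2-OFF summit with a fold of 4.30 lay next to the run, at position 144864431.

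At Fgf5, binding centred on Fgf5+1.7 (chr5:98255875-98256155), in the first intron. β-catenin was present in 12 of 12 libraries, with folds of 17.7, 10.3 and 8.96 in naive ESC, 9.10, 13.9 and 12.7 in CEpiLC, 22.6, 7.98 and 26.5 in SOX2-ON, and 23.6, 7.81 and 26.0 in SOX2-OFF. The 4 groups overlapped. SOX2 folds were 6.52, 8.35 and 13.9 in CEpiLC, 9.79, 12.1 and 26.8 in SOX2-OFF, 8.49 and 12.3 in 2 naive ESC libraries and 22.9 in 1 SOX2-ON library. All 12 SOX2 libraries had a peak there when the full lists were used. TCF7L1 had a peak in 10 of 12 libraries, with the highest fold, 56.2, in a SOX2-ON library. The rank strength, log2 of the ratio of 1 plus the maximum list length to the rank of the peak, and 0 without a peak, did not pass the test of high against low SOX2 for β-catenin (difference −0.853, p = 0.115, adjusted p = 0.195) or SOX2 (difference −1.91, p = 0.075, adjusted p = 0.202) in the exact permutation test within cell lines.

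Fgf5+39.3 (chr5:98293419-98293568, intergenic) was a SOX2 element of SOX2-ON cells. SOX2 folds were 10.1, 7.73 and 18.3 in the 3 SOX2-ON libraries, and no CEpiLC or SOX2-OFF library had a SOX2 peak there even in the full list. Naive ESC, the other high-SOX2 condition, had peaks of 3.09, 4.46 and 4.30 that did not reach the 20000 strongest. β-catenin reached 9.14 and 9.18 in 2 SOX2-ON libraries and 6.35 in 1 SOX2-OFF library. The third recurrent element at this gene, Fgf5+56.1, was seen in 7 libraries, all of them replicate 3.

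At Fgf8, the element in most libraries lay far upstream and the elements of CEpiLC mostly downstream. Fgf8-48.0 (chr19:45790654-45791016) had β-catenin peaks in 12 of 12 libraries, with folds of 43.2, 24.1 and 53.0 in naive ESC, 15.6, 11.1 and 9.96 in CEpiLC, 12.4, 8.65 and 14.8 in SOX2-ON, and 20.3, 6.15 and 25.9 in SOX2-OFF. TCF7L1 folds were 67.4, 58.8 and 127 in naive ESC and at most 20.2 in the other conditions. The naive ESC libraries stood above all others for TCF7L1. For β-catenin they did so by rank, 289 to 642 against 1137 at best elsewhere, whereas by fold the lowest naive ESC value was under the highest of SOX2-OFF. SOX2 was found there in all naive ESC libraries, at 15.9, 10.7 and 11.4, and in all CEpiLC libraries, at 4.98, 7.71 and 8.79. It was also among the strongest in 1 SOX2-ON library, at 7.13. The full lists held weaker SOX2 peaks of 4.56 and 4.94 in SOX2-ON and of 3.29, 4.47 and 4.56 in SOX2-OFF, so no SOX2 library lacked one.

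Fgf8+19.8 (chr19:45722982-45723055, intergenic) was the clearest CEpiLC element of the 5 genes. β-catenin folds were 29.6, 35.2 and 33.6 in CEpiLC and 19.8 and 15.8 in 2 SOX2-OFF libraries, with none among the strongest in naive ESC or SOX2-ON. SOX2 folds were 11.0, 11.1 and 35.8 in CEpiLC and 7.44 and 17.0 in 2 SOX2-OFF libraries, and the full lists of naive ESC and SOX2-ON had no SOX2 peak. LEF1, a TCF family activator, had folds of 8.55, 13.8 and 19.9 in CEpiLC and none among the strongest elsewhere. The full list of SOX2-ON replicate 3, whose strongest peaks ended at a fold of 8.80, held a LEF1 peak of 8.25. That of naive ESC replicate 3 held one of 2.75. The list that lacked β-catenin at this element in SOX2-OFF was that of replicate 2, which held 3423 peaks. SOX2 in SOX2-OFF also lacked it in replicate 2, whose full list held 375980 peaks. Rank strength was lower with high SOX2 by 4.01 for β-catenin (p = 0.02, adjusted p = 0.102) and by 3.15 for SOX2 (p = 0.02, adjusted p = 0.130) in the exact permutation test.

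Fgf8+9.5 for SOX2, and Fgf8+7.5 for SOX2 and β-catenin, were also found mainly in CEpiLC and SOX2-OFF. At Fgf8+9.5, SOX2 folds were 9.91, 13.4 and 19.4 in CEpiLC. They were 8.53 and 35.9 in 2 SOX2-OFF libraries and 8.04 in 1 SOX2-ON library. β-catenin at Fgf8+9.5 was among the strongest in 3 CEpiLC, 1 SOX2-ON and 1 SOX2-OFF libraries. The full lists held β-catenin there in 2 SOX2-ON, 1 SOX2-OFF and 1 naive ESC libraries, so its presence was not more frequent in SOX2-OFF than in SOX2-ON. At Fgf8+7.5, β-catenin folds were 17.4, 21.5 and 16.0 in CEpiLC and 8.48 and 19.5 in 2 SOX2-OFF libraries, and SOX2 folds were 6.47 and 6.22 in 2 CEpiLC and 5.60 and 9.09 in 2 SOX2-OFF libraries. LEF1 at Fgf8+7.5 had 8.47, 16.8 and 14.8 in CEpiLC but also 18.2 in 1 naive ESC library. Neither element had a SOX2 peak in any naive ESC list. Fgf8-40.5, 498 bp from the Mgea5 start, had β-catenin folds of 4.53, 5.23 and 4.50 in CEpiLC, with higher ones of 6.65 in 1 SOX2-ON and 7.19 in 1 SOX2-OFF library. Its SOX2 folds were 9.02, 6.23 and 8.51 in CEpiLC, 10.0 and 12.6 in 2 SOX2-ON libraries, and 8.99, 6.79 and 5.41 in the full lists of naive ESC, so SOX2 there was not limited to CEpiLC. Fgf8+23.7 was a SOX2 element of SOX2-ON with folds of 6.68, 16.8 and 10.6 and no SOX2 peak in the full lists of the other conditions. Fgf8-3.3 was the nearest to the Fgf8 start, with SOX2 folds of 5.37, 13.0 and 44.8 in SOX2-OFF, none among the strongest in SOX2-ON, where 1 full list had a fold of 4.69, and 1 library each of naive ESC and CEpiLC.

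**Figure D2:**
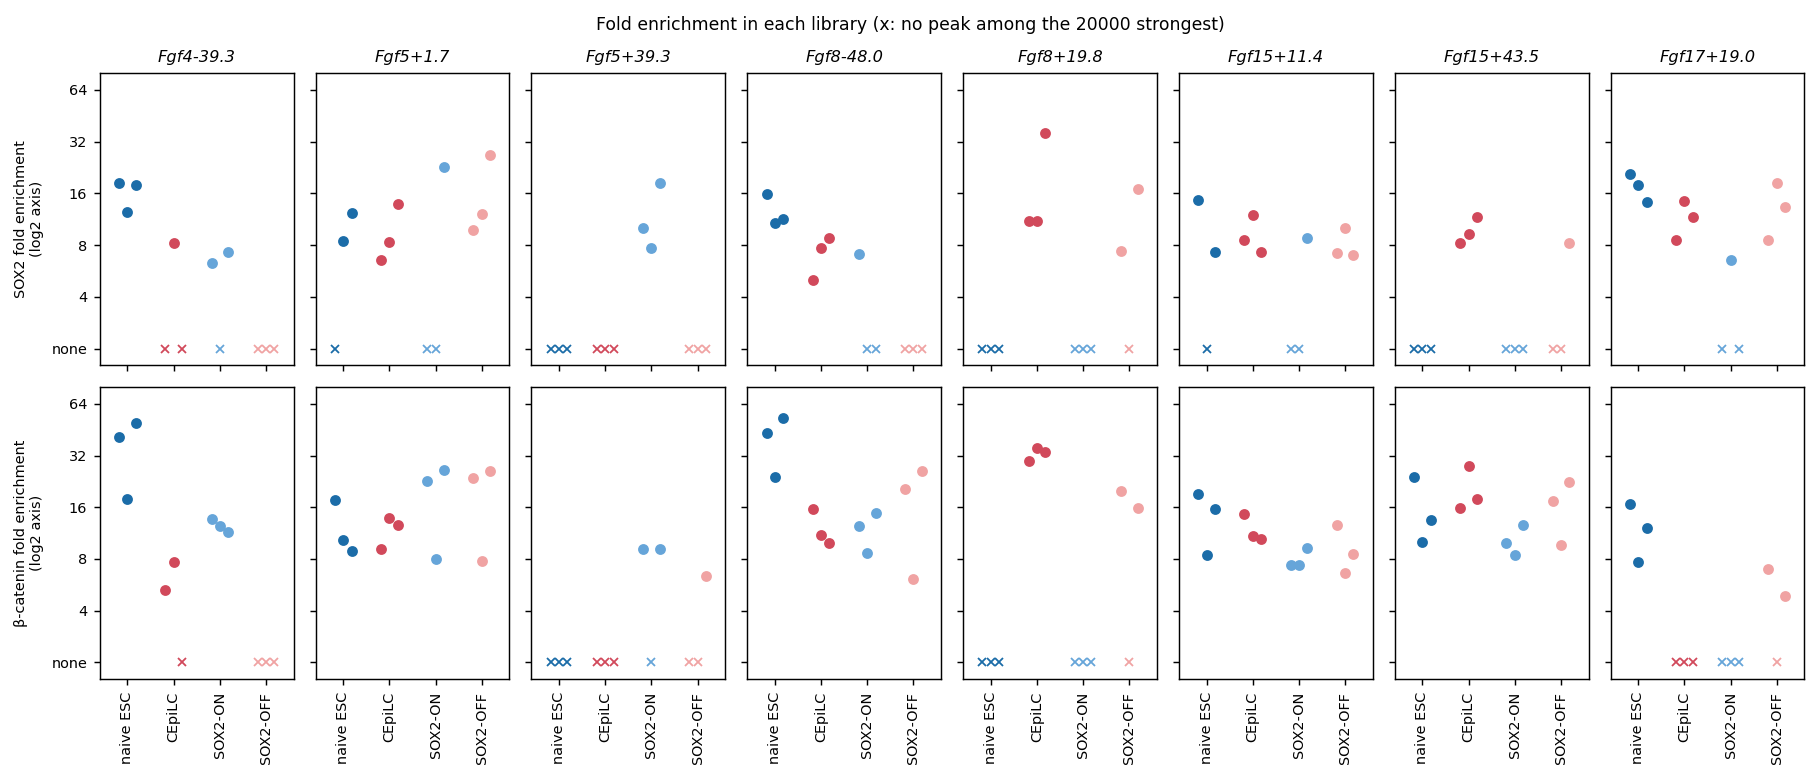
Fold enrichment on a log2 axis in each library for SOX2 (top row) and β-catenin (bottom row) at 8 elements, by condition; a point is 1 library and a cross is a library with no peak among its 20000 strongest. Fgf8+19.8 has points in CEpiLC and SOX2-OFF and crosses in all 6 naive ESC and SOX2-ON libraries of either target, and Fgf5+39.3 has SOX2 points in SOX2-ON alone.

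At Fgf15, Fgf15+11.4 (chr7:144907934-144908076) had β-catenin peaks in 12 of 12 libraries. Folds were 19.2, 8.49 and 15.6 in naive ESC, 14.7, 10.9 and 10.5 in CEpiLC, 7.42, 7.42 and 9.25 in SOX2-ON, and 12.7, 6.61 and 8.55 in SOX2-OFF, and the naive ESC and CEpiLC folds overlapped, as did those of SOX2-ON and SOX2-OFF. In rank strength β-catenin was lower with high SOX2 by 1.30 (p = 0.01, adjusted p = 0.102, exact permutation test). TCF7L1 reached the highest folds there, with folds of 34.2, 15.8 and 68.2 in naive ESC and 20.0, 37.5 and 25.2 in SOX2-OFF. SOX2 was among the strongest in 3 of 3 libraries of CEpiLC and of SOX2-OFF, in 2 of 3 of naive ESC and in 1 of 3 of SOX2-ON.

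Fgf15-11.1 (chr7:144885345-144885749, intergenic) was bound in CEpiLC. SOX2 folds were 6.86, 6.34 and 9.16, β-catenin folds 11.8, 11.3 and 11.6, and LEF1 folds 7.26, 15.0 and 12.2. Neither SOX2 nor β-catenin had a peak there in any naive ESC or SOX2-ON list, and β-catenin had 7.64 and 5.13 in 2 SOX2-OFF libraries. Fgf15-7.8 was less strict, with SOX2 among the strongest in 3 CEpiLC, 2 SOX2-OFF and 1 naive ESC libraries. The full lists held SOX2 at Fgf15-7.8 in all 3 libraries of each of these conditions and in 2 SOX2-ON libraries, at 4.13 and 5.35. The only named element within 1 kb of the Fgf15 start, Fgf15+0.7, lay in an exon of the non-coding gene Gm26793 and was in 5 libraries with a highest fold of 7.57.

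The remaining elements of the Fgf15 window surround the start of Ccnd1. At Fgf15+43.5 (chr7:144939801-144940041), β-catenin folds were 23.9, 10.1 and 13.4 in naive ESC, 15.9, 27.8 and 17.8 in CEpiLC, 9.94, 8.42 and 12.6 in SOX2-ON, and 17.5, 9.59 and 22.5 in SOX2-OFF. The folds of high and low SOX2 overlapped within each line, and the ranks did not, with 2019 to 4144 in naive ESC against 584 to 1505 in CEpiLC, and 3511 to 5994 in SOX2-ON against 800 to 1630 in SOX2-OFF. SOX2 had a peak there among the strongest in all CEpiLC libraries, at 8.28, 9.22 and 11.6, in 1 SOX2-OFF library and in no library of high SOX2. The full lists of high SOX2 held weaker SOX2 peaks, of 4.68 and 5.65 in naive ESC and of 5.19, 2.49 and 3.63 in SOX2-ON. At Fgf15+46.9, 3505 bp from the Ccnd1 start, TCF7L2 had a peak in 12 of 12 libraries, with folds of 18.8, 24.8 and 18.7 in naive ESC, 17.9, 31.0 and 44.6 in CEpiLC, 12.2, 19.2 and 26.0 in SOX2-ON, and 22.6, 18.7 and 21.5 in SOX2-OFF. The TCF7L2 groups overlapped, and LEF1 and TCF7L1 had no peak there among the strongest. SOX2 and β-catenin had none among the strongest in naive ESC or SOX2-ON. The full lists held β-catenin peaks of 5.55 and 5.38 in naive ESC and of 2.87 and 4.57 in SOX2-ON. They also held a SOX2 peak of 2.67 in SOX2-ON. TCF7L2 was also found at Fgf15+45.8 in 3 of 3 libraries of naive ESC and of CEpiLC.

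At Fgf17, the element in most libraries, Fgf17+7.5, lay in a neighbouring gene. Fgf17+7.5 (chr14:70634705-70635296) had SOX2 in 11 of 12 libraries, with folds of 14.6, 8.99 and 10.4 in naive ESC, 11.3, 9.79 and 18.4 in CEpiLC, 10.3, 6.34 and 13.2 in SOX2-ON, and 7.46 and 8.40 in 2 SOX2-OFF libraries. Naive ESC, CEpiLC and SOX2-ON overlapped, while the SOX2-OFF folds lay below those of naive ESC and CEpiLC and overlapped SOX2-ON. Fgf17+19.0 (chr14:70623251-70623533), in an intron of Dmtn, had SOX2 folds of 20.7, 17.8 and 14.2 in naive ESC, 8.60, 14.4 and 11.6 in CEpiLC, 8.53, 18.3 and 13.4 in SOX2-OFF, and 6.53 in 1 SOX2-ON library. Its β-catenin peaks among the strongest were those of naive ESC, at 16.8, 7.64 and 12.2, and of 2 SOX2-OFF libraries, at 7.03 and 4.86, with weaker-ranked peaks of 5.39 and 5.80 in the full lists of 2 SOX2-ON libraries, and its TCF7L1 folds in naive ESC were 31.7, 16.0 and 36.0. Inside Fgf17 itself, Fgf17+1.6 had β-catenin folds of 7.18, 5.54 and 6.08 and LEF1 folds of 5.59, 4.66 and 4.64 in CEpiLC, and naive ESC had 1 library each with β-catenin at 6.03 and LEF1 at 12.3. The full lists of 2 SOX2-OFF libraries held LEF1 at 5.07 and 5.89 and β-catenin at 3.80 and 4.09. Fgf17-17.1, 139 bp from the Npm2 start, had β-catenin folds of 7.08, 4.85 and 7.28 in CEpiLC and 5.45 in 1 SOX2-OFF library. The full lists also held β-catenin at Fgf17-17.1 at 6.23 in 1 SOX2-ON, 3.97 in another SOX2-OFF and 4.36 in 1 naive ESC library. TCF7L2 folds at Fgf17-17.1 were 6.18, 16.4 and 10.4 in CEpiLC, 7.67 in 1 naive ESC, 4.66 and 13.0 in 2 SOX2-ON and 7.63 in 1 SOX2-OFF library.

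**Figure D3:**
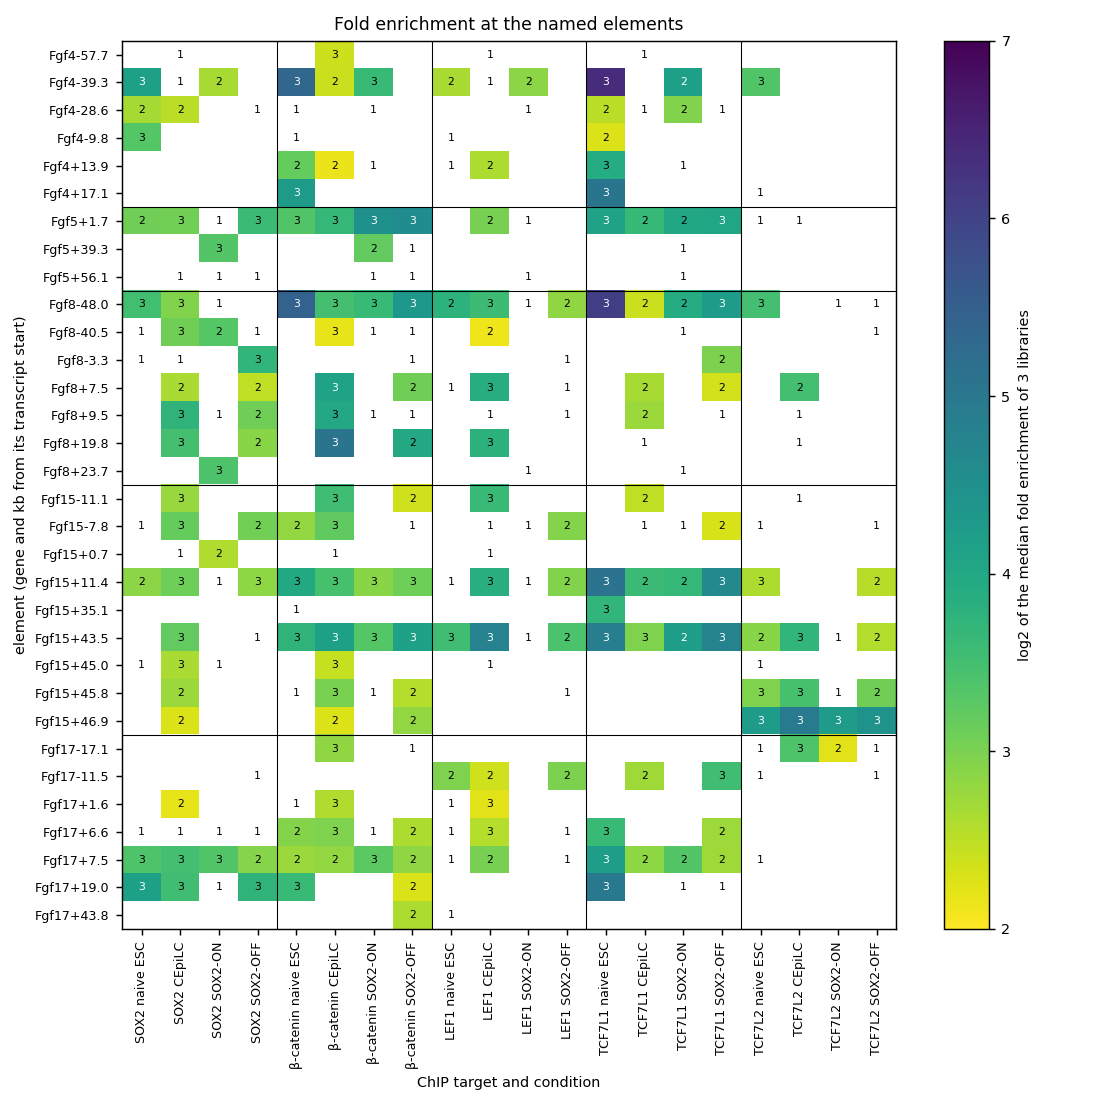
The 32 named elements (rows) in the 20 groups of target and condition (columns); colour gives log2 of the median fold of 3 libraries, with a library without a peak counted as 0 and white where the median is 0, and the printed digit is the number of 3 libraries with a peak among the 20000 strongest. Fgf4-39.3 and Fgf8-48.0 are darkest for TCF7L1 in naive ESC, and Fgf15+46.9 carries 3 of 3 in every TCF7L2 column.

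The first comparison asked which elements were gained or lost between naive ESC and CEpiLC. Elements entered for a target if at least 3 of its 12 libraries held them. A call meant a peak in 3 of 3 libraries on one side and 0 of 3 on the other. Over both comparisons, 12 of 31 calls were of elements that no library outside the called group held for that target, so they met the minimum of 3 libraries through that group alone and the call in part repeats the minimum. A test of 3 against 3 libraries cannot give p below 0.1. For SOX2, 4 of 23 elements were called for CEpiLC (Fgf8+9.5, Fgf8+19.8, Fgf15-11.1 and Fgf15+43.5), or 17.4%, against 10.6% of all elements of the genome. Fgf4-9.8 alone was called for naive ESC, against 10.0%. For β-catenin, 8 of 23 were called for CEpiLC, or 34.8% against 15.1%. They were Fgf4-57.7, Fgf8-40.5, Fgf8+7.5, Fgf8+9.5, Fgf8+19.8, Fgf15-11.1, Fgf15+45.0 and Fgf17-17.1. The CEpiLC β-catenin lists were kept down to folds of 3.08, 1.61 and 1.54, and those of naive ESC to 5.90, 6.35 and 5.64. The full naive ESC lists held β-catenin peaks of 3.52 and 4.25 at Fgf8-40.5 and of 3.85 and 3.46 at Fgf15+45.0. They also held peaks of 4.36 at Fgf17-17.1 and 5.76 at Fgf8+9.5, and none at the others. Fgf4+17.1 and Fgf17+19.0 were called for naive ESC, 2 of 23 against 20.9%. The β-catenin calls, 10 in both directions, were 6 with lists of equal length and 10 with all deposited peaks. The latter 10 were not the same elements. The naive ESC peaks given above leave Fgf8-40.5, Fgf8+9.5, Fgf15+45.0 and Fgf17-17.1 uncalled when all deposited peaks are used. For LEF1, 2 of 14 were called for CEpiLC (Fgf8+19.8 and Fgf15-11.1; 26.2% of all elements) and 0 for naive ESC (0.204%). For TCF7L1, 6 of 16 were called for naive ESC (Fgf4-39.3, Fgf4+13.9, Fgf4+17.1, Fgf15+35.1, Fgf17+6.6 and Fgf17+19.0), or 37.5% against a background of 47.6%, and 0 for CEpiLC (0.537%), where 1 TCF7L1 library held 1628 peaks. The full CEpiLC lists held TCF7L1 peaks of 5.13 and 4.47 at Fgf4-39.3 and of 3.67 at Fgf17+6.6. For TCF7L2, 3 of 7 were called for naive ESC (Fgf4-39.3, Fgf8-48.0 and Fgf15+11.4; 4.89% of all elements) and 0 for CEpiLC (9.81%). The full CEpiLC lists held TCF7L2 peaks at all 3 elements, with folds of 4.18 at Fgf4-39.3, 6.76 and 5.07 at Fgf8-48.0 and 5.46 and 3.86 at Fgf15+11.4. The 3 TCF7L2 calls became 0 with all deposited peaks and 1 with lists of equal length. The 26 calls of this comparison fell to 17 with lists of equal length and to 14 without replicate 3.

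The second comparison was between SOX2-ON and SOX2-OFF, which differ in doxycycline within 1 line. For SOX2, 2 of 23 elements were called for SOX2-ON (Fgf5+39.3 and Fgf8+23.7), or 8.70% against 17.9% of all elements, and 1 for SOX2-OFF (Fgf8-3.3), against 2.74%. For β-catenin, 1 of 23 was called for SOX2-ON (Fgf4-39.3; 8.06%) and 0 for SOX2-OFF (1.04%). For TCF7L1, 0 of 16 were called for SOX2-ON (2.41%) and 1 for SOX2-OFF (Fgf17-11.5; 1.11%), with folds of 22.1, 6.81 and 11.6. None was called for LEF1 in SOX2-ON (7.80%) or SOX2-OFF (2.44%), nor for TCF7L2 in SOX2-ON (2.68%) or SOX2-OFF (2.21%). The 5 calls became 11 with all deposited peaks, 8 when ranked by p-value, and 8, 16 and 9 without replicate 1, 2 and 3.

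The third comparison was of high against low SOX2 over both lines, by rank strength. In the exact permutation test within cell lines, no element of the genome passed an adjusted p of 0.05 for any target, the unadjusted p being under 0.05 at 4028 elements (SOX2), 4203 (β-catenin), 882 (LEF1), 3079 (TCF7L1) and 700 (TCF7L2). Among the 83 tests of elements at the 5 genes, 15 had an unadjusted p under 0.05. For SOX2, 1 of 23 was higher with high SOX2, against 9.02% of all elements, and 4 with low SOX2, against 8.69%. For β-catenin, 1 of 23 was higher with high SOX2 (10.3% of all elements) and 6 with low SOX2 (12.1%). For TCF7L1, 1 of 16 was higher with high SOX2 (14.0%) and 2 with low SOX2 (3.65%). None of 14 passed for LEF1 (1.68% with high and 11.2% with low SOX2) and none of 7 for TCF7L2 (3.41% and 8.78%). The element higher with high SOX2 was Fgf4-39.3 for each of the 3 targets. Fgf4-39.3 for β-catenin was higher with high SOX2 by 3.31, at p = 0.005, the smallest that the exact permutation test allows (adjusted p = 0.060). Fgf15+43.5 for β-catenin was lower with high SOX2 by 1.81 at the same p = 0.005 in this exact test (adjusted p = 0.060). That p was reached with high SOX2 by 4.30% and with low SOX2 by 4.04% of all β-catenin elements. The 3 β-catenin lists under 20000 peaks were all of low SOX2, and their part in these differences was not tested. In the same exact permutation test, both elements passed an adjusted p of 0.05 with the 10000 strongest peaks (adjusted p = 0.0472) and with lists of equal length (adjusted p = 0.0329), and over the alternatives their adjusted p ran from 0.0329 to 0.285.

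No element at the 5 genes reached the smallest p for the other targets, for which the shares of all elements with high and with low SOX2 were as follows. SOX2 had 3.65% and 3.31%, LEF1 had 0.102% and 4.03%, TCF7L1 had 2.20% and 1.22%, and TCF7L2 had 1.08% and 2.33%. For Fgf4-39.3, SOX2 differed by 1.18 (p = 0.02, adjusted p = 0.130) and TCF7L1 by 4.46 (p = 0.02, adjusted p = 0.131) in the exact permutation test. The difference between the lines was tested by exchanging line labels within a SOX2 level. That exchange assumes no line difference at either SOX2 level, so a line difference shared by both levels can also alter the p. The tested difference had an unadjusted p under 0.05 in 7 of the 83 tests. These were 2 of 23 for SOX2 (6.60% of all elements), 2 of 23 for β-catenin (6.07%), 0 of 14 for LEF1 (274 of 6855 elements), 2 of 16 for TCF7L1 (4.78%) and 1 of 7 for TCF7L2 (5.68%), so the counts were near the background, and its smallest adjusted p in this exact permutation test was 0.243.

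Other genes of the FGF pathway were counted by windows of the same kind. An element called for SOX2 in CEpiLC lay in the windows of 3 of the 5 ligands described here (Fgf4, Fgf8 and Fgf15), of 4 of 17 other FGF ligands, of 2 of 7 receptors and coreceptors (Fgfr1 and Fgfr2) and of 3 of 9 feedback regulators and targets (Spry2, Spry4 and Spred2), against 18.8% of all protein-coding windows. For naive ESC the counts were 2 of 5, 2 of 17, 1 of 7 and 5 of 9 (Spry2, Spred2, Dusp6, Il17rd and Etv5), against 16.9%. For β-catenin in CEpiLC they were 4 of 5, 6 of 17, 2 of 7 and 6 of 9 against 20.4%, and in naive ESC 3 of 5, 4 of 17, 2 of 7 and 4 of 9 against 24.4%. SOX2 in SOX2-ON gave 2 of 5, 3 of 17, 2 of 7 and 1 of 9 against 19.2%, and in SOX2-OFF 1 of 5, 1 of 17, 1 of 7 and 2 of 9 against 5.72%. β-catenin in SOX2-ON gave 1 of 5, 3 of 17, 2 of 7 and 0 of 9 against 7.62%, and in SOX2-OFF 0 in all 4 lists against 1.49%. Windows of neighbouring genes share elements, as those of Fgf3, Fgf4 and Fgf15 do.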

How the data were processed

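The data were 60 peak lists of ChIP-seq libraries, read as single ends of 76 bp. Per the methods of the study, the authors used the nf-core ChIP-seq pipeline with BWA alignment to mm10 and called narrow peaks for each library separately with MACS (MACS2 in the submitters' processing notes) at a q-value under 0.05. The deposited fold of a peak is the ratio of the signal at its summit to the local background, while the −log10 columns that the authors deposited give the p-value and q-value of that summit. Read counts and the authors' tests of them were not used here.

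Peaks on chromosomes 1 to 19, X and Y were ranked by the deposited fold, and the 20000 strongest of each library were kept. Fold at the last rank kept ran from 3.08 to 9.89 in the 50 lists that reached this length. Gene bodies came from GENCODE M21 and sequences from GRCm38.p6, the same assembly as mm10. Each element was given to the one of the 5 genes whose start is nearest, although the start of another gene is often nearer, and distances are from the start of the APPRIS principal transcript. Rank strength of high and low SOX2 libraries was compared by an exact two-sided permutation test within cell lines with 400 assignments, adjusted by the Benjamini-Hochberg method over all elements of a target with a peak in at least 3 of 12 lists. The joining of summits, the rank strength and this test were tested on simulated data. Named elements were the 4 per gene in most libraries, up to 3 called for SOX2 or β-catenin, and the strongest of each condition for these proteins, 26 in all. Another 6 were added after their values were seen (Fgf4-9.8, Fgf8-3.3, Fgf8+23.7, Fgf15+35.1, Fgf15+46.9 and Fgf17+1.6), because they were called for a target, occupied in all 12 libraries of a target or recurrent inside an FGF gene. The genes, lists and tests were chosen with earlier results of these data known. Replicates came from separate experiments according to the study. Depth is unknown, since the lists hold no read counts. Analyses used Python with numpy, pandas, pysam and matplotlib.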

Additional observations from a re-analysis of the deposited data

Results flagged for a closer look

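Fgf8-48.0 had rank differences of opposite sign in the 2 cell lines. For β-catenin, every naive ESC library ranked above every CEpiLC library (mean rank strength higher by 2.04), and every SOX2-ON library ranked below every SOX2-OFF library (difference −1.26). The difference between the lines was 3.30, with p = 0.01 and an adjusted p of 0.244 in the exact permutation test. Ranks come from lists of unequal length, and by fold SOX2-OFF replicate 2, whose β-catenin list held 3423 peaks, lay at 6.15, below all 3 SOX2-ON libraries (12.4, 8.65 and 14.8), so the order of SOX2-ON and SOX2-OFF held by rank and not by fold. For TCF7L1, the same pattern gave differences of 3.00 and −2.47 and a difference between the lines of 5.47, with p = 0.03 and an adjusted p of 0.243 in the exact permutation test. Neither passed the adjusted threshold, and the limit of the test between lines given above applies to both. By fold, TCF7L1 overlapped between SOX2-ON (up to 20.2) and SOX2-OFF (16.1, 19.2 and 19.8). The TCF7L1 values include 1 CEpiLC and 1 SOX2-ON library with no peak there among the strongest.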

How the results depend on the processing

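With lists of equal length, the 26 calls between CEpiLC and naive ESC fell to 17 and, with a window of 10 kb, to 6, and leaving out 1 replicate gave 14 to 23. The 5 calls between SOX2-ON and SOX2-OFF became 11 with all deposited peaks (summits within 200 bp of the elements), 8 when ranked by −log10 p-value, 1 with a window of 10 kb, and 8 to 16 when 1 replicate was left out. The number of elements past an adjusted p of 0.05 for high against low SOX2 was 0, and 2 with the 10000 strongest peaks and with lists of equal length. The number at the smallest p was 2, and it was 4 with all deposited peaks, 0 with a window of 10 kb and 5 to 15 when 1 replicate was left out, where the smallest p is 0.0556. The count of groups with a peak in 3 of 3 libraries, 81, was 38 with a window of 10 kb and 81 to 93 when 1 replicate was left out. Between SOX2-ON and SOX2-OFF, deviations of libraries with the same replicate number were correlated for TCF7L1 (0.304, 0.266 and 0.202). There the mean of 3 pairs was also positive for LEF1 (0.161), TCF7L2 (0.149), β-catenin (0.108) and SOX2 (0.0669). Outside TCF7L1 in these lines, 0 to 2 of 3 pairs exceeded 0.1. Between naive ESC and CEpiLC the means ran from −0.0163 to 0.0675. The main test used no pairing by replicate number. With the replicate number as a block, 64 assignments allowed a smallest p of 0.0312, which 4 elements reached in place of 2, and 0 passed adjustment. Of 163 values of the 15 tests with p under 0.05 at the named elements under the alternatives, 163 kept their sign. These tests were picked by their p in the same libraries, and the replicate block leaves the difference itself unchanged. The kept signs are therefore no independent support.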
